A study of Arabidopsis thaliana with 35 samples.

Results

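Salicylic acid is the hormone with which Arabidopsis (*Arabidopsis thaliana*) responds to biotrophic pathogens, and the 10 genes described here cover its route from synthesis to defence output. They were taken from the deposited table of 28775 genes by their locus identifiers and all 10 were found in it: *ICS1* (AT1G74710), *EDS5* (AT4G39030), *SARD1* (AT1G73805), *CBP60g* (AT5G26920), *EDS1* (AT3G48090), *PAD4* (AT3G52430), *NPR1* (AT1G64280), *PR1* (AT2G14610), *PR2* (AT3G57260) and *PR5* (AT1G75040). Most salicylic acid made under attack comes from the plastid enzyme isochorismate synthase, encoded by *ICS1*, whose product leaves the plastid through the transporter *EDS5*. The transcription factors *SARD1* and *CBP60g* activate *ICS1*, the lipase-like proteins *EDS1* and *PAD4* act as a pair upstream of synthesis, *NPR1* is a salicylic acid receptor and coactivator, and *PR1*, *PR2* and *PR5* encode secreted pathogenesis-related proteins that serve as the usual readouts of the pathway.

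RNA was sequenced from the shoot apical meristem region and leaf bases of plants that were 14 days old at the start, in 35 libraries. The wild type (WT) was Col-0 and the mutant, *clf swn* (*cs*), carried T-DNA alleles of *CLF* and *SWN* (*clf-29 swn-3*), the catalytic subunits of Polycomb repressive complex 2 (PRC2), which places the repressive histone mark H3K27me3. Each genotype was collected untreated at time 0 (ctrl) or after 55 h with the solvent DMSO (mock, M), 5 µM of the synthetic auxin 2,4-D (A), wounding by cutting the shoot from the root (W) or both (WA), giving WT-ctrl, WT-M, WT-W, WT-A, WT-WA and the corresponding *cs* groups. Mock and 2,4-D plants that were not wounded were intact seedlings, and the *clf swn* plants were picked as seedlings from a segregating progeny because the double mutant sets no seed. Every treated group had 3 libraries, WT-ctrl had 5 and *cs*-ctrl had 6. The untreated libraries carry only replicate numbers 1 to 3, so that some share a number, and the labels do not say how those differ. They entered the model as separate libraries, and an n of 5 or 6 counts libraries and not biological replicates.

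Between 11375703 and 18094983 reads were counted per library, with a median of 14665511, so that 3 counts corresponded to 0.166 to 0.264 CPM (counts per 1000000 counted reads). *CLF* ran from 29.5 to 55.6 CPM in wild-type and from 0.775 to 1.92 CPM in *clf swn* libraries, and *SWN* from 39.6 to 68.7 and from 18.7 to 33.3 CPM, which matched the genotype labels. The meristem genes *STM* and *KNAT1* were present in the tissue (means of 75.8 and 64.4 CPM in WT-M), while the stem cell genes *CLV3* and *WUS* were low (0.341 and 0.629 CPM) and of the root genes *COBL9* was at 0, *CASP1* at 0.431, *WOX5* at 2.68 and *SCR* at 53.0 CPM. Some libraries stood apart for the genes described here. Replicate 2 of *cs*-M held 2.05 CPM of *PR1*, 8.46 of *PR2*, 1.89 of *PR5* and 29.1 of *SARD1*, where the other *cs*-M replicates held 0 and 0, 0.426 and 0.0874, 0.0711 and 0.437, and 2.56 and 7.96 CPM. Replicate 3 of WT-M was above the other mock libraries for *PR1* and *PR2*, and the untreated wild-type libraries differed between the sets that the table names C0 and C1. The main results that rest on these libraries are given below with and without them. In whole tissue, fewer cells of a type and less RNA per cell cannot be told apart.

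The DNA just upstream of the genes is shown because 9 of the 10 rose together in wild type after 2,4-D, and because sequence elements read by factors of this pathway are known. The 250 bases before the annotated start of 9 of the genes were read from RefSeq's TAIR10.1 assembly and searched on both strands for the W-box core TTGAC bound by WRKY factors, for TGACG, the core bound by the TGA factors that partner *NPR1*, and for GAAATTT, a motif bound by *SARD1* and *CBP60g*. The letters TTGACG hold a match to both the W-box and the TGA core. The windows of the 5 genes with a match follow, 5′ to 3′ on the strand of the gene, with the matched bases in capitals.
ICS1 (chr1:28070045-28070294, plus strand): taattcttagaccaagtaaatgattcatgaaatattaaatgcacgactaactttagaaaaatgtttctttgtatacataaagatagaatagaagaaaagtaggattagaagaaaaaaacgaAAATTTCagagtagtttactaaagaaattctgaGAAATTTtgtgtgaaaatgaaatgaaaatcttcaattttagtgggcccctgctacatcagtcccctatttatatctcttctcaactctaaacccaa
EDS5 (chr4:18185187-18185436, plus strand): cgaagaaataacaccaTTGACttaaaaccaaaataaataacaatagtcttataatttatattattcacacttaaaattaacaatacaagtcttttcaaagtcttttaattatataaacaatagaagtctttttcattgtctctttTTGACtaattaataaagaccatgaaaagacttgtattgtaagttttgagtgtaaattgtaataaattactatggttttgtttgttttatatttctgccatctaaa
SARD1 (chr1:27749249-27749498, minus strand): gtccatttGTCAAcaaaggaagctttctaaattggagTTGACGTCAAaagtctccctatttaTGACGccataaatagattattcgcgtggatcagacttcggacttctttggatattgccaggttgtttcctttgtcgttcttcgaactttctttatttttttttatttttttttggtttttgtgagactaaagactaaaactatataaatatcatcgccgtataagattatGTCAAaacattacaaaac
EDS1 (chr3:17758148-17758397, minus strand): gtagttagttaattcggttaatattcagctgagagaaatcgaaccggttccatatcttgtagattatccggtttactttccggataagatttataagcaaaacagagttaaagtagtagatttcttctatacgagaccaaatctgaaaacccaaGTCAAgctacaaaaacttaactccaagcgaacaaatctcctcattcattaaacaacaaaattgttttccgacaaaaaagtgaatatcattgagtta
PR5 (chr1:28177420-28177669, plus strand): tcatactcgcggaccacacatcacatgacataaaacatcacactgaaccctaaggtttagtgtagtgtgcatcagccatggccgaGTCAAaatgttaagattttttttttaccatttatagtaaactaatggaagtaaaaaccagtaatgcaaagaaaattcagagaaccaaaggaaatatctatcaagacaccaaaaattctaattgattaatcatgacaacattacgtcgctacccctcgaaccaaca
The W-box core was in 4 of the 9 windows, against 44.9% of the 27443 windows of the same length upstream of protein-coding genes. *SARD1* had 4 of these cores, a number reached or passed by 0.721% of all windows, and 3 TGA cores, reached or passed by 0.583%. The TGA core was in no other window of the 9, against 18.6% of all windows. *ICS1* alone of the 9 held GAAATTT, with 2 matches, which 2.10% of all windows also reached or passed, while 12.5% of all windows had at least 1 match. *CBP60g*, *PAD4*, *NPR1* and *PR2* held none of these letters in this window. A match is a description of the letters and not a binding site.

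In wild type, 2,4-D raised the RNA of most of the 10 genes, those of synthesis and of output among them. Compared with WT-M, 9 of the 10 genes were called higher in WT-A and none lower, where a call means that the adjusted p of edgeR's quasi-likelihood test was under 0.05 and that the log2 fold change reached 0.6 in size. Of the 21115 genes tested, 19.7% were called higher and 20.7% lower in that comparison. The same number, 9 of 10, was called higher in WT-WA, against 23.0% of all genes, and wounding alone raised 4, against 10.8%. In 9 of the 10 genes every WT-A library was above every WT-M library, as it was in 33.4% of all genes, and the same held for 9 in WT-WA (35.6%). The median log2 fold change of the 10 genes was 3.04 in WT-A, 3.52 in WT-WA and 0.66 in WT-W, where that of all genes was 0, 0 and 0.015. *NPR1* was the gene left out in both 2,4-D groups. In *clf swn*, none of the 10 genes was called higher after any treatment. Of all genes, 5.82% were called higher in *cs*-A and 9.81% in *cs*-WA, and 1.07% were called in either direction in *cs*-W. A count of 0 of 10 is close to what such small shares give, so it does not set the 10 genes apart.

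**Figure D1:**
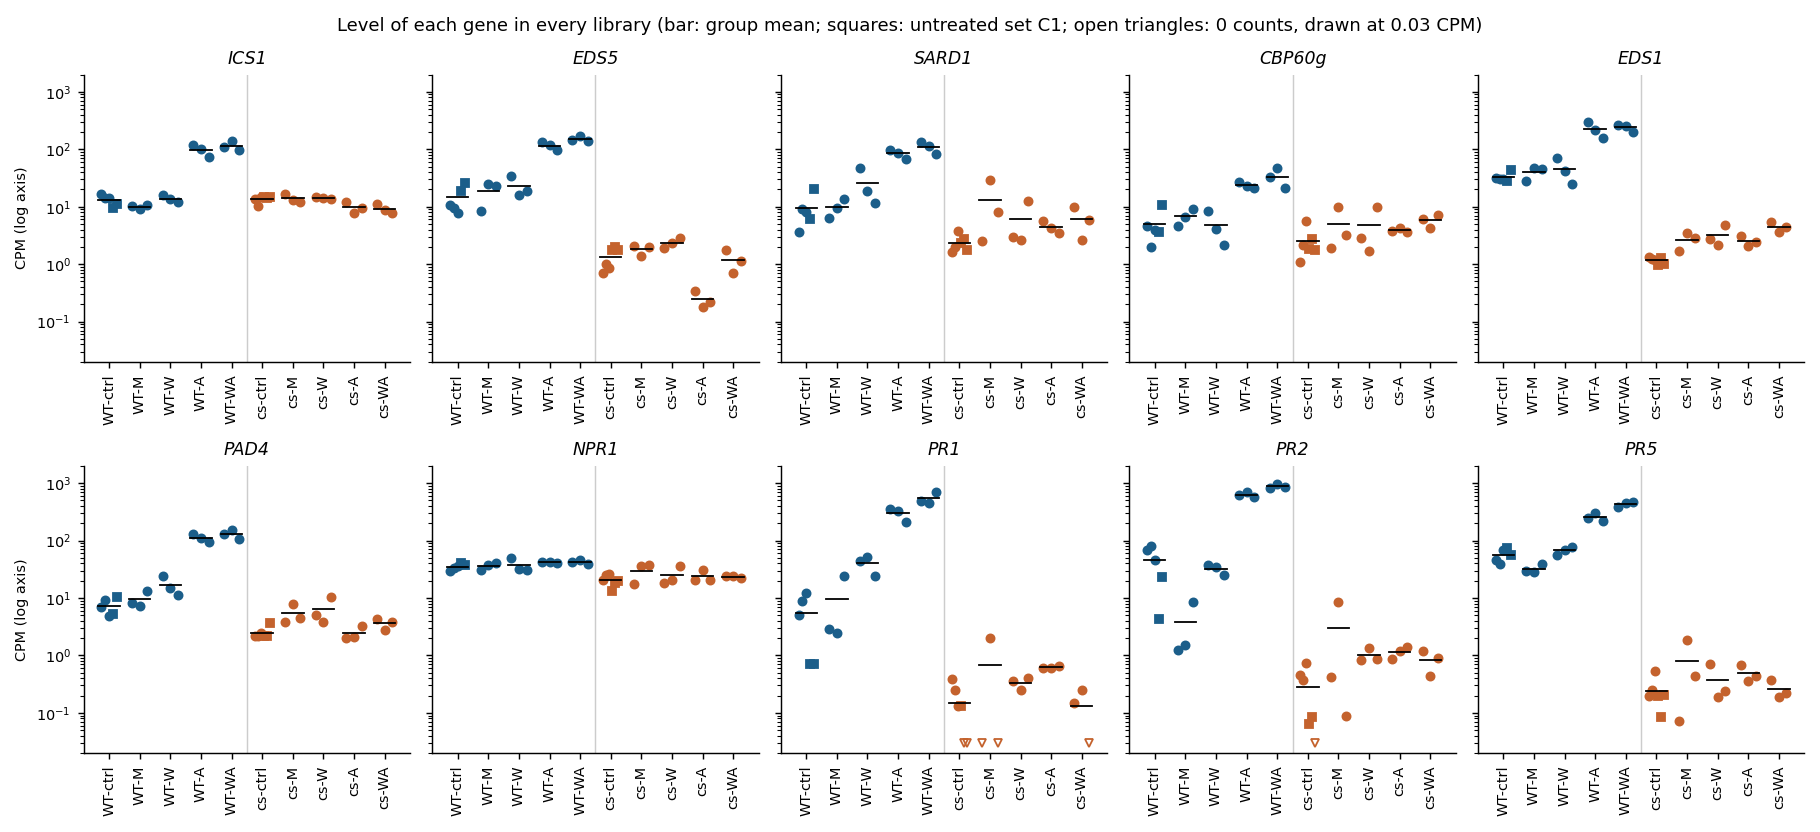
Level of each of the 10 genes in CPM (log axis) in all 35 libraries, with wild type in blue, *clf swn* in orange and a bar at each group mean; squares are untreated libraries of set C1 and open triangles are libraries with 0 counts, drawn at 0.03 CPM. In WT-A and WT-WA every gene but *NPR1* lies above all WT-M libraries, and *PR1* runs from 212 to 714 CPM there while no *clf swn* library exceeds 2.05 CPM.

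*ICS1*, the first committed step of the isochorismate route, was at 10.11, 9.06 and 10.6 CPM in WT-M and at 121, 102 and 73.1 CPM in WT-A. It reached 109, 139 and 98.7 CPM in WT-WA and was at 15.9, 13.8 and 11.9 CPM in WT-W. The 2,4-D libraries lay far above the mock libraries, and the WT-A and WT-WA ranges overlapped each other. The log2 fold change over WT-M was 3.31 ± 0.20 (SE, adjusted p = 2.6e-14, edgeR) in WT-A and 3.54 ± 0.20 (adjusted p = 3.9e-15) in WT-WA. In WT-W it was 0.49 ± 0.20 (adjusted p = 0.047), below the fold limit. The mutant did not follow. There *ICS1* was at 16.8, 13.1 and 12.2 CPM in *cs*-M, 11.95, 7.90 and 9.42 CPM in *cs*-A and 11.03, 8.94 and 7.66 CPM in *cs*-WA. All the 2,4-D libraries of the mutant were below its mock libraries, by a log2 fold change of -0.55 ± 0.20 (adjusted p = 0.043, under the fold limit) in *cs*-A and -0.69 ± 0.20 (adjusted p = 0.0087) in *cs*-WA. Without replicate 1 of *cs*-M the latter was -0.56 (adjusted p = 0.069), and without replicate 2 or 3 of *cs*-WA its adjusted p was 0.052 each time.

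*EDS5*, which exports the isochorismate product from the plastid, was low in the mutant whatever the treatment. In wild type it was at 8.49, 24.98 and 22.8 CPM in WT-M, 131, 117 and 95.6 CPM in WT-A and 145, 172 and 141 CPM in WT-WA. The mutant libraries held 2.06, 1.40 and 2.01 CPM in *cs*-M, 0.338, 0.178 and 0.217 CPM in *cs*-A (5, 3 and 3 counts) and 1.78, 0.702 and 1.11 CPM in *cs*-WA. Wild type thus rose by 2.60 ± 0.35 on the log2 scale in WT-A (adjusted p = 2.9e-07) and by 3.01 ± 0.36 in WT-WA (adjusted p = 1.9e-08). In *cs*-A the gene fell by 2.89 ± 0.80 (adjusted p = 0.0085). The summed counts of WT-A were 473 times those of *cs*-A per counted read, with an exact 95% interval of 264 to 948, and those of WT-M were 10.7 times those of *cs*-M (8.37 to 13.9). These intervals, here and below, come from the conditional binomial distribution of counts summed over a group and cover counting error only.

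*SARD1* and *CBP60g*, the activators of *ICS1*, rose in wild type from lower levels. *SARD1* was at 6.49, 9.34 and 13.4 CPM in WT-M, 98.3, 87.3 and 69.0 CPM in WT-A and 136, 116 and 83.5 CPM in WT-WA. *CBP60g* was at 4.71, 6.58 and 9.04 CPM in WT-M, 26.6, 23.0 and 20.8 CPM in WT-A and 32.4, 46.4 and 21.6 CPM in WT-WA. For both genes the WT-A and WT-WA libraries were all above the mock libraries, with log2 fold changes of 3.11 ± 0.63 (adjusted p = 0.00011) and 3.51 ± 0.64 (adjusted p = 2.2e-05) for *SARD1* and 1.78 ± 0.57 (adjusted p = 0.0089) and 2.29 ± 0.58 (adjusted p = 0.00099) for *CBP60g*. After wounding, *SARD1* spread from 11.4 to 46.7 CPM and was not called (log2 fold change 1.41 ± 0.62, adjusted p = 0.071). In the mutant *SARD1* ran from 1.61 to 29.1 CPM and *CBP60g* from 1.095 to 9.93 CPM over all 18 *clf swn* libraries, and replicate 2 of *cs*-M and replicate 3 of *cs*-W were the highest of their groups for both.

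Both lipase-like genes rose in wild type after 2,4-D, and they differed in how deeply they were reduced in the mutant. *EDS1* was at 28.3, 48.1 and 45.8 CPM in WT-M, 296, 220.0 and 159 CPM in WT-A and 268, 254 and 203 CPM in WT-WA. *PAD4* was at 8.11, 7.35 and 13.3 CPM in WT-M, 129, 110 and 95.9 CPM in WT-A and 132, 156 and 105 CPM in WT-WA. Mock and 2,4-D libraries did not overlap for either gene. *EDS1* rose by 2.45 ± 0.28 on the log2 scale in WT-A (adjusted p = 1.3e-08) and by 2.56 ± 0.28 in WT-WA (adjusted p = 4.8e-09), *PAD4* by 3.54 ± 0.33 (adjusted p = 2.8e-10) and 3.77 ± 0.34 (adjusted p = 6.1e-11). In the mutant *EDS1* stayed between 0.974 and 5.48 CPM in every library. *PAD4* was at 3.84, 7.89 and 4.46 CPM in *cs*-M and 2.03, 2.08 and 3.26 CPM in *cs*-A, a fall of 1.16 ± 0.40 on the log2 scale (adjusted p = 0.035). Without replicate 2 of *cs*-M the log2 fold change was -0.76 (adjusted p = 0.25), and without replicate 1 or 2 of *cs*-A the adjusted p was 0.11 and 0.12. In *cs*-ctrl *PAD4* was at 2.17 to 3.71 CPM, a range that overlapped that of *cs*-A.

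*NPR1*, the receptor, was the flattest of the genes. Its group means in wild type ran from 35.2 ± 4.08 CPM (SD, n = 5) in WT-ctrl to 42.7 ± 3.57 CPM (n = 3) in WT-WA. The mutant means ran from 20.6 ± 4.77 CPM (n = 6) in *cs*-ctrl to 30.1 ± 10.96 CPM (n = 3) in *cs*-M, so that neighbouring groups of either genotype did not differ beyond their spread. The log2 fold change over WT-M was 0.19 ± 0.25 (adjusted p = 0.54) in WT-A and 0.21 ± 0.25 (adjusted p = 0.47) in WT-WA. The activity of *NPR1* protein is known to be controlled largely after translation, which RNA counts do not measure.

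The secreted proteins had the widest ranges. *PR1*, a small cysteine-rich secreted protein, was at 2.93, 2.43 and 23.7 CPM in WT-M, 43.3, 52.7 and 24.3 CPM in WT-W, 355, 322 and 212 CPM in WT-A and 491, 452 and 714 CPM in WT-WA. The 4 groups fell in that order, with replicate 3 of WT-M just under the lowest wounded library. The log2 fold change over WT-M was 4.95 ± 0.70 (adjusted p = 6.4e-07) in WT-A and 5.85 ± 0.73 (adjusted p = 4.7e-08) in WT-WA. Without replicate 3 of WT-M these were 6.78 (adjusted p = 3.1e-08) and 7.68 (adjusted p = 3.9e-09). In the mutant it was at 0, 2.05 and 0 CPM in *cs*-M, 0.608, 0.594 and 0.652 CPM in *cs*-A, and 0.148, 0.255 and 0 CPM in *cs*-WA, that is 25, 28 and 6 counts in all. WT-WA held 25949 counts of *PR1*, and its level was 3948 times that of *cs*-WA (95% interval 1813 to 10760).

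*PR2*, a beta-1,3-glucanase, was at 1.24, 1.55 and 8.49 CPM in WT-M, 37.1, 34.3 and 25.3 CPM in WT-W, 632, 692 and 576 CPM in WT-A and 829, 978 and 871 CPM in WT-WA. *PR5*, a thaumatin-like protein, was at 29.2, 28.8 and 39.5 CPM in WT-M, 56.0, 69.3 and 76.3 CPM in WT-W, 245, 303 and 219 CPM in WT-A and 391, 444 and 476 CPM in WT-WA. For both genes none of the 4 groups overlapped another. *PR2* had the largest log2 fold changes of the 10 genes, 7.41 ± 0.85 (adjusted p = 1.3e-08) in WT-A and 7.90 ± 0.86 (adjusted p = 3.8e-09) in WT-WA, and without replicate 3 of WT-M they were 8.79 (adjusted p = 4.3e-08) and 9.28 (adjusted p = 1.5e-08). For *PR5* they were 2.98 ± 0.28 (adjusted p = 2e-10) and 3.75 ± 0.28 (adjusted p = 2e-12). In the mutant *PR2* was at 0.877, 1.19 and 1.38 CPM in *cs*-A and 1.18, 0.447 and 0.892 CPM in *cs*-WA, and *PR5* at 0.675, 0.357 and 0.435 CPM and 0.370, 0.192 and 0.223 CPM. WT-WA exceeded *cs*-WA 1087-fold for *PR2* (95% interval 782 to 1561) and 1696-fold for *PR5* (948 to 3398).

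Relative to WT-M, wounding without 2,4-D raised the RNA of the 3 secreted proteins and of *PAD4* in wild type. The WT-ctrl libraries overlapped those of WT-W for *PR2* (4.40 to 81.6 CPM in WT-ctrl) and *PR5* (38.8 to 74.0 CPM). They lay below all WT-W libraries for *PR1* (0.703 to 12.2 CPM) and *PAD4* (4.77 to 10.3 CPM). WT-W was not tested against WT-ctrl. The log2 fold change over WT-M was 3.12 ± 0.75 for *PR2* (adjusted p = 0.0016), 2.07 ± 0.65 for *PR1* (adjusted p = 0.012), 1.06 ± 0.26 for *PR5* (adjusted p = 0.0021) and 0.83 ± 0.32 for *PAD4* (adjusted p = 0.043). *PAD4* was at 24.5, 14.8 and 11.1 CPM in WT-W and overlapped the mock libraries. Its call was lost without replicate 1 or 2 of WT-M (log2 fold change 0.73 and 0.67, adjusted p = 0.13 and 0.17) or replicate 1 of WT-W (0.43, adjusted p = 0.33). That of *PR1* was lost without replicate 1 or 2 of WT-M (1.66 and 1.60, adjusted p = 0.072 and 0.08) and in DESeq2 (2.08, adjusted p = 0.12). Without replicate 3 of WT-M, *PR1* was at 3.91 (adjusted p = 0.00015) and *PR2* at 4.51 (adjusted p = 0.00049). *EDS5* (15.8 to 33.9 CPM) and *EDS1* (24.8 to 71.7 CPM) spread over the mock range in WT-W. *EDS5* (0.29 ± 0.34), *EDS1* (0.19 ± 0.27) and *CBP60g* (-0.46 ± 0.60) had adjusted p of 0.54, 0.61 and 0.58. In *clf swn*, none of the 10 genes was called after wounding in edgeR or DESeq2 and none had an unadjusted p under 0.05, where 1.07% of all genes were called in edgeR.

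**Figure D2:**
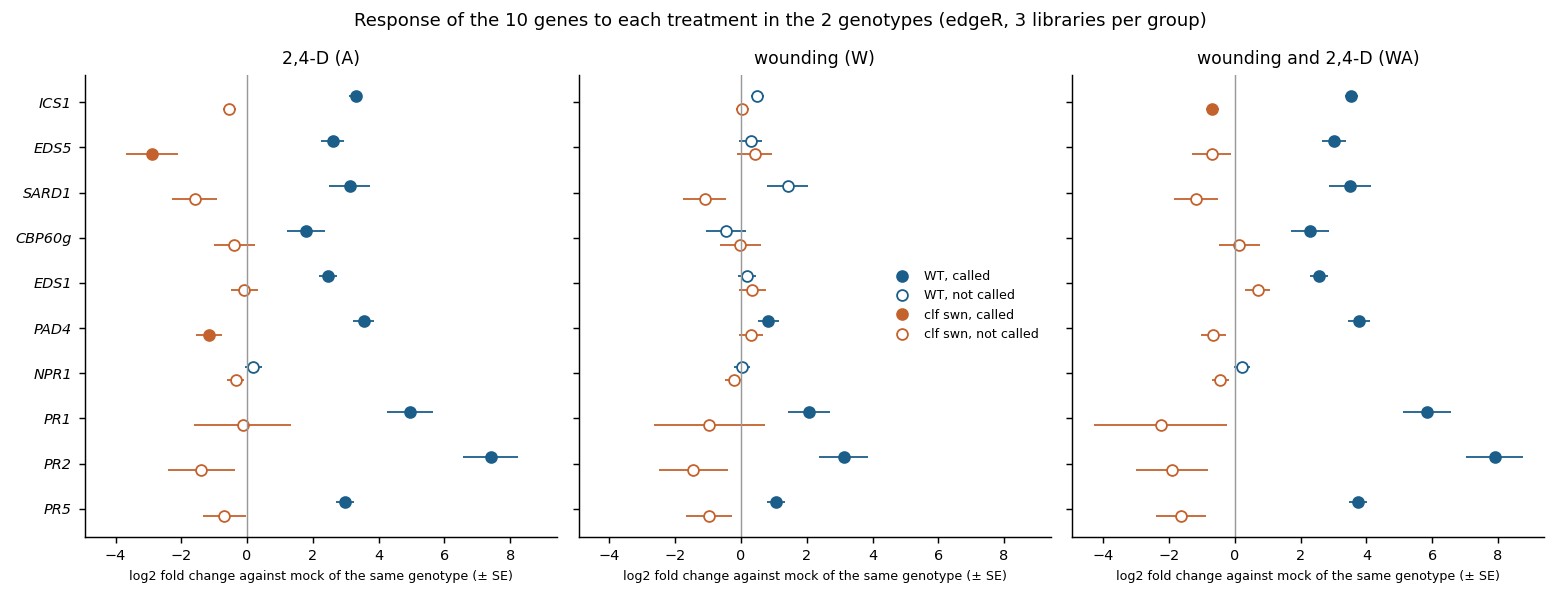
Log2 fold change against mock of the same genotype (± SE, edgeR) for the 10 genes after 2,4-D, wounding or both, with wild type in blue, *clf swn* in orange, filled points called and open points not called. Under 2,4-D, 9 genes lie at 1.78 to 7.41 in wild type, while *EDS5* (-2.89) and *PAD4* (-1.16) are the filled points of *clf swn*.

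The difference between the genotypes in the response was tested as an interaction, where a call needs an adjusted p under 0.05. For 2,4-D, 9 of the 10 genes had a smaller response in *clf swn*, against 20.8% of all genes with a negative interaction. For wounding with 2,4-D it was also 9, against 20.8%. *NPR1* was again the exception, at -0.54 ± 0.36 (adjusted p = 0.23) and -0.65 ± 0.36 (adjusted p = 0.15) on the log2 scale. The interaction of 2,4-D was -3.86 ± 0.28 for *ICS1* (adjusted p = 1.9e-11), -4.70 ± 0.51 for *PAD4* (adjusted p = 2e-08), -5.49 ± 0.84 for *EDS5* (adjusted p = 4.4e-06) and -2.54 ± 0.50 for *EDS1* (adjusted p = 0.00013). Without replicate 2 of *cs*-M, the library that stood apart, 5 genes were called for 2,4-D. *PR2* was then at -5.38 (adjusted p = 0.1; -8.80 ± 1.27 with it), *PR5* at -1.97 (adjusted p = 0.12; -3.67 ± 0.73 with it) and *CBP60g* at -1.18 (adjusted p = 0.3; -2.17 ± 0.85 with it). *PR1* went from -5.08 ± 1.80 to 1.24 (adjusted p = 0.85), and the remaining *cs*-M libraries held no count of it. For wounding with 2,4-D, the calls of *PR2* (-6.39, adjusted p = 0.065; -9.82 ± 1.32 with it), *PR1* (-1.79, adjusted p = 0.96; -8.11 ± 2.19 with it) and *CBP60g* (-1.16, adjusted p = 0.3; -2.15 ± 0.84 with it) were lost without that library, and that of *PR5* was not. *CBP60g* also lost its call without any of several other libraries, with adjusted p from 0.051 to 0.088. For wounding alone *PR2* was called (-4.58 ± 1.27, adjusted p = 0.015, against 6.39% of all genes), and without replicate 2 of *cs*-M it was -1.15 (adjusted p = 0.78). *PR1* (-3.03 ± 1.83, adjusted p = 0.28) and *PR5* (-2.05 ± 0.75, adjusted p = 0.062) were not called for wounding. Both were called without replicate 3 of WT-M, at -4.87 (adjusted p = 0.042) and -2.20 (adjusted p = 0.048).

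Wounding and 2,4-D together were compared with the sum of the responses to each. In wild type none of the 10 genes had an interaction past the threshold in edgeR, against 19.0% of all genes called, with 1 gene at an unadjusted p under 0.05 and none called in DESeq2. That gene was *PR2*, at -2.63 ± 0.96 (adjusted p = 0.053), a value below the sum of the log2 changes. With the replicate number as a block it was -2.67 (adjusted p = 0.049), and without replicate 3 of WT-M it was -4.02 (adjusted p = 0.011), where *PR1* was called as well (-3.01, adjusted p = 0.015). In *clf swn* none was called in either tool and none had an unadjusted p under 0.05, where 1.06% of all genes were called.

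**Figure D3:**
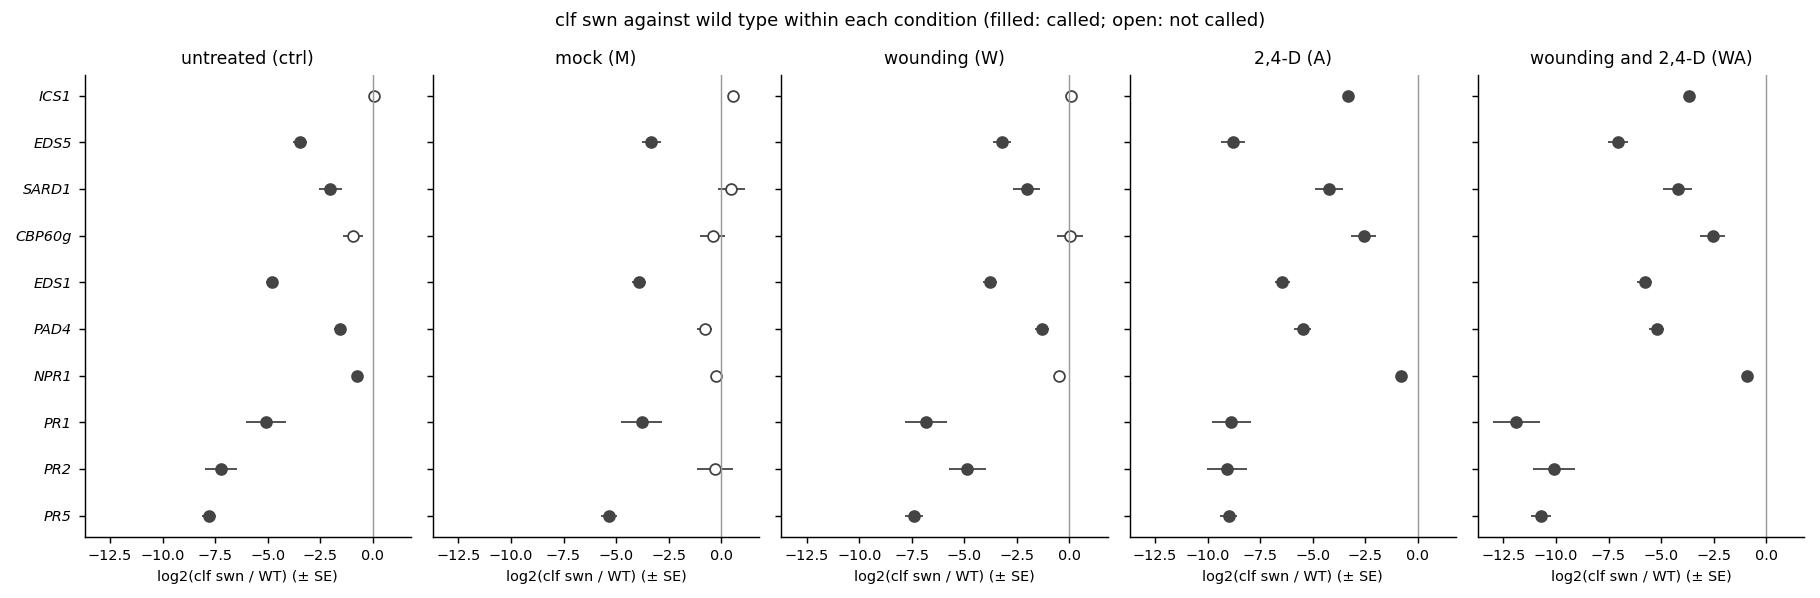
Log2 ratio of *clf swn* to wild type (± SE, edgeR) for the 10 genes in the 5 conditions, with filled points called and open points not called. Every point is filled and left of 0 in the 2,4-D panels, and *PR1* reaches -11.89 in wounding with 2,4-D, while *ICS1* is open in untreated (0.04), mock (0.54) and wounded tissue (0.09).

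Compared within a condition, *clf swn* was below wild type for 8 of the 10 genes in untreated tissue, against 20.4% of all genes called lower. It was 4 of 10 after mock (17.1%), 7 after wounding (16.5%), and all 10 after 2,4-D with or without wounding (22.8% and 19.8%). No gene of the 10 was called higher in any of the 5 conditions, where 13.6%, 14.4%, 14.8%, 23.5% and 23.4% of all genes were, in the same order. With 2,4-D every mutant library was below every wild-type library for all 10 genes, as for 35.2% of all genes, and with both treatments for all 10 as well, as for 31.4%. The median log2 ratio of the 10 genes was -2.74 in untreated tissue, -0.59 after mock, -2.62 after wounding, -5.97 in 2,4-D and -5.50 in both, where that of all genes lay between -0.003 and 0.031. In these counts the genes fell into 3 patterns. *EDS1*, *EDS5*, *PR1* and *PR5* were lower in the mutant in all 5 conditions. *PR5*, for instance, was at 46.6, 38.8 and 69.5 CPM in set C0 and 74.0 and 55.6 CPM in set C1 of WT-ctrl, but at 0.0850 to 0.530 CPM in *cs*-ctrl with a median of 0.199, a log2 ratio of -7.80 ± 0.32 (adjusted p = 2.2e-18). *EDS1* was at 27.9 to 43.5 CPM in WT-ctrl and 0.974 to 1.35 CPM in *cs*-ctrl (-4.79 ± 0.27, adjusted p = 3.8e-15). *ICS1* and *CBP60g* were called lower only with 2,4-D. *ICS1* differed by 0.04 ± 0.14 (adjusted p = 0.84) in untreated tissue, from 13.3 ± 2.88 CPM (SD, n = 5) in WT-ctrl and 13.7 ± 1.75 CPM (n = 6) in *cs*-ctrl, and the ratio of summed counts, wild type over mutant, was 0.982 (95% interval 0.900 to 1.07). After mock it was higher in the mutant by 0.54 ± 0.20 (adjusted p = 0.024), under the fold limit. *PAD4*, *NPR1*, *SARD1* and *PR2* were in between, and none of them was called after mock.

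For *PR1* and *PR2* the mock comparison depended on single libraries. *PR1* differed between *cs*-M and WT-M by -3.79 ± 0.99 (adjusted p = 0.0022), and by -1.95 (adjusted p = 0.13) without replicate 3 of WT-M. *PR2* differed by -0.28 ± 0.86 (adjusted p = 0.82), by 1.104 (adjusted p = 0.42) without replicate 3 of WT-M, and by -3.70 (adjusted p = 0.022) without replicate 2 of *cs*-M, where *PAD4* was called too (-1.18, adjusted p = 0.018). In wounded tissue the call of *SARD1* (-2.04 ± 0.65, adjusted p = 0.01) was lost without replicate 1 of WT-W (adjusted p = 0.12) or replicate 1 or 2 of *cs*-W (adjusted p = 0.053 and 0.067). In untreated tissue *SARD1* and *NPR1* were not called when set C0 alone was used (adjusted p = 0.11 and 0.19), and *SARD1* was not called without both libraries numbered 2 of WT-ctrl (adjusted p = 0.064).

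The 55 h of mock treatment were compared with untreated tissue. In wild type 1 of the 10 genes changed, *PR2*, which fell, where 1.16% of all genes were called lower. It was at 69.8, 81.6 and 46.4 CPM in the C0 libraries and 4.40 and 23.1 CPM in the C1 libraries of WT-ctrl. The log2 fold change of WT-M was -3.62 ± 0.72 (adjusted p = 0.0047) and, with set C0 alone, -4.15 (adjusted p = 0.00015). When only the libraries of these 2 groups entered the fit it was -3.62 (adjusted p = 0.14), and without replicate 3 of WT-M it was -5.00 (adjusted p = 0.0041). *PR1* showed the same split of the untreated libraries, at 5.03, 8.83 and 12.2 CPM in C0 and 0.703 and 0.707 CPM in C1, and was not called (adjusted p = 0.58). *PR5* was at -0.83 ± 0.24 (adjusted p = 0.053), and with the replicate block at -0.86 (adjusted p = 0.042). In *clf swn* 1 gene was called higher, *SARD1* (2.51 ± 0.59, adjusted p = 0.027, against 0.881% of all genes). Without replicate 2 of *cs*-M it was 1.13 (adjusted p = 0.57), without replicate 3 of *cs*-M it was 2.77 (adjusted p = 0.053), and without the untreated libraries of any 1 number it was 2.39 to 2.65 (adjusted p = 0.08 to 0.11). The median log2 fold change of the 10 genes was 1.15, where that of all genes was 0.008. For 2 of them, *EDS1* and *PAD4*, every *cs*-M library was above every *cs*-ctrl library, as for 5.92% of all genes. These 2 were not called in edgeR (1.175 ± 0.40, adjusted p = 0.13, and 1.13 ± 0.34, adjusted p = 0.085). Both were called in DESeq2 (adjusted p = 0.02 and 0.023).

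Levels of different genes were compared per length, as CPM per kilobase of annotated exon. In WT-WA *PR1* (613 ± 157, SD, n = 3) and *PR2* (605 ± 52.1) did not differ beyond their spread and stood above *PR5* (399 ± 39.1). *EDS1* followed at 94.6 ± 13.3, and *EDS5* (67.5 ± 7.40), *PAD4* (58.0 ± 11.3), *ICS1* (53.0 ± 9.47) and *SARD1* (46.6) formed a run in which each overlapped its neighbour. *NPR1* (16.3 ± 1.37) and *CBP60g* (14.5 ± 5.40) were lowest. In *cs*-WA the order began with *NPR1* (8.99 ± 0.422) and *ICS1* (4.22 ± 0.780) and ended with *PR5* (0.239 ± 0.0870) and *PR1* (0.149 ± 0.142). There *PR2* was at 0.570 ± 0.251, next to *EDS5* at 0.530 ± 0.240. In WT-M *PR5* was highest (29.7 ± 5.53) and *PR2* lowest (2.54 ± 2.78).

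Across the 35 libraries the 45 pairs of the 10 genes had Pearson correlations of log2(CPM + 1) from 0.458 (*ICS1* and *NPR1*) to 0.973 (*EDS1* and *PR5*). Over the 5 group means of wild type they ran from 0.846 to 0.997, with a median of 0.965, and over those of *clf swn* from -0.604 to 0.976, with a median of 0.473. These are descriptions of groups that share their libraries. The genes outside the 10 whose group means followed the mean profile of the 10 most closely were AT1G34420 (Pearson r = 0.994 over the 10 group means), *CRK15* (AT4G23230, r = 0.993), *CYP71B23* (AT3G26210, r = 0.993), AT5G41750 (r = 0.992) and AT1G67800 (r = 0.992). *CRK15*, for example, averaged 0.911 CPM in WT-M, 5.91 in WT-A, 6.92 in WT-WA and 0.0247 in *cs*-WA. Of the 10 genes themselves, *PAD4* (0.984), *PR1* (0.984) and *EDS5* (0.979) were closest to the mean profile and *ICS1* (0.891) farthest. Each of the 10 helps make that profile, which raises its own correlation with it.

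A wider list of 55 genes of salicylic acid synthesis, turnover, signalling and response, without the 10, was read from the same fits, and 52 of them passed the filter. In WT-A 28 were called higher and 9 lower, where 19.7% and 20.7% of all genes were called, and in WT-WA 29 and 10, where 23.0% and 25.0% were. Wounding gave 14 higher and 5 lower, where 10.8% and 8.31% of all genes were called. The median log2 fold change of the 52 genes was 0.69 in WT-A, 1.02 in WT-WA and 0.49 in WT-W. In *cs*-A 1 was called higher and 7 lower, where 5.82% and 6.35% of all genes were called, and in *cs*-WA 4 and 5, where 9.81% and 8.49% were. After wounding none was called in *clf swn* in edgeR or DESeq2, with 5 genes at an unadjusted p under 0.05. Between the genotypes, *cs*-WA was below WT-WA for 33 of the 52 genes and above for 4, where 19.8% and 23.4% of all genes were called.

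**Figure D4:**
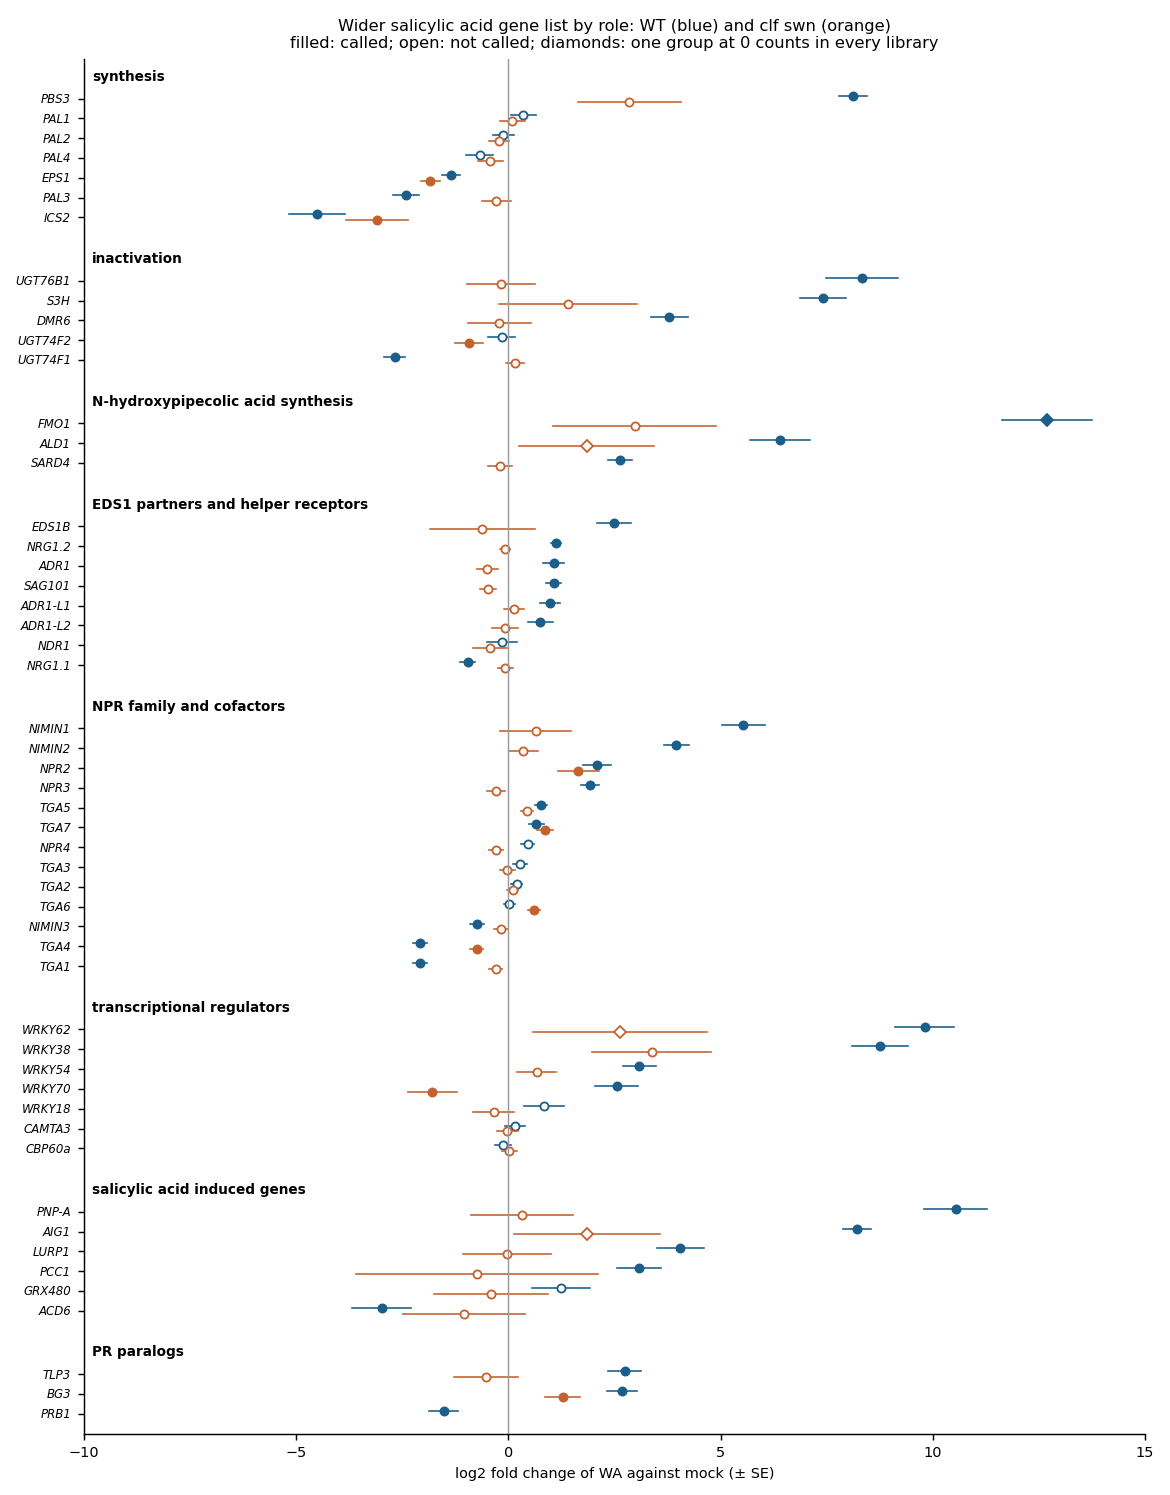
Log2 fold change of wounding with 2,4-D against mock (± SE, edgeR) for the 52 tested genes of the wider list, grouped by role, with wild type in blue, *clf swn* in orange, filled points called and diamonds marking fits in which one group had 0 counts in every library. In wild type 29 points are called to the right and 10 to the left, and in *clf swn* 4 and 5.

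The roles are described by their counts in wild type after wounding with 2,4-D, to be read against the 23.0% of all genes called higher and 25.0% called lower. Of the 7 synthesis genes 1 rose and 3 fell. *PBS3*, which conjugates isochorismate to glutamate on the way to salicylic acid, went from 0.556 ± 0.0602 CPM (SD, n = 3) in WT-M to 109 ± 22.0 in WT-A and 156 ± 16.5 in WT-WA (log2 fold change 8.11 ± 0.33, adjusted p = 9.4e-18). *ICS2*, the second isochorismate synthase, went the other way, from 4.99 ± 0.976 to 0.212 ± 0.0898 CPM in WT-WA (-4.50 ± 0.66, adjusted p = 8.2e-07). It fell in *cs*-WA too, from 1.97 ± 0.287 to 0.244 ± 0.160 CPM (-3.09 ± 0.73, adjusted p = 0.0015), and its genotype by treatment interaction was not called (adjusted p = 0.34). Of the 5 tested genes that inactivate the hormone 3 rose and 1 fell, led by the glycosyltransferase *UGT76B1* (0.107 ± 0.0926 to 37.9 ± 16.95 CPM) and the 3-hydroxylase *S3H* (0.366 ± 0.308 to 64.9 ± 11.04 CPM). *S3H* had 0 counts in all 6 *cs*-ctrl libraries, so that WT-ctrl was at least 67.75-fold higher against a floor of 3 counts over that group.

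All 3 genes of N-hydroxypipecolic acid synthesis, another signal of systemic resistance, rose in WT-WA. *FMO1*, its last enzyme, had no count in WT-M and averaged 44.9 ± 20.2 CPM in WT-A and 58.2 ± 9.60 in WT-WA, at least 678-fold and 881-fold higher against 3 counts over the WT-M libraries. *ALD1*, its first enzyme, went from 0.0230 ± 0.0398 to 2.58 ± 1.245 CPM. Neither was called after any treatment in *clf swn*, where *FMO1* averaged 0.290 ± 0.158 CPM in *cs*-WA. Of 8 partners of *EDS1* and helper receptors 6 rose and 1 fell. *EDS1B*, the neighbouring copy of *EDS1*, went from 2.47 ± 1.69 to 14.0 ± 1.36 CPM and was at or below 0.148 CPM on average in each *clf swn* group. *NRG1.2* changed least of the genes named here, from 19.5 ± 0.5676 to 42.7 ± 3.33 CPM (1.12 ± 0.12, adjusted p = 3.3e-09), and was at 20.3 ± 1.07 CPM in *cs*-WA.

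Of the 13 genes of the *NPR* family and its cofactors 6 rose and 3 fell. *NIMIN1* and *NIMIN2*, which bind *NPR1* and are known as salicylic acid induced genes, rose by 5.54 ± 0.51 (adjusted p = 1e-10) and 3.96 ± 0.29 (adjusted p = 1e-12) on the log2 scale. Of 7 transcriptional regulators 4 rose and none fell, and *WRKY62* and *WRKY38*, known as negative regulators of basal defence, went from 0.0257 ± 0.0446 to 27.7 ± 9.50 CPM and from 0.103 ± 0.178 to 42.4 ± 19.15 CPM. Of 6 salicylic acid induced genes 4 rose and 1 fell. *PNP-A*, a secreted peptide, went from 0.152 ± 0.176 to 242 ± 17.99 CPM and *AIG1* from 0.341 ± 0.176 to 102 ± 16.2 CPM. All 6 were called lower in *cs*-WA than in WT-WA, where 19.8% of all genes were. In untreated tissue all 6 were called lower in *cs*-ctrl than in WT-ctrl, where 20.4% of all genes were.

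The close relatives of the secreted proteins did not all move with them. *PRB1*, the basic relative of *PR1*, was at 46.4 ± 8.54 CPM in WT-M and fell to 16.8 ± 6.76 in WT-A (-1.47 ± 0.34, adjusted p = 0.00074) and 16.1 ± 7.13 in WT-WA (-1.52 ± 0.34, adjusted p = 0.00041). It had 0 counts in every library of *cs*-M, *cs*-A and *cs*-WA, and WT-M was at least 572-fold higher than *cs*-M against 3 counts over the group. *BG3*, near *PR2*, rose from 2.01 ± 0.115 to 12.95 ± 2.60 CPM in WT-WA and was called higher in *cs*-WA as well (1.28 ± 0.42, adjusted p = 0.02). *TLP3*, near *PR5*, rose from 1.46 ± 0.666 to 10.07 ± 1.11 CPM. *BG1* and AT1G75050, the other relatives listed, did not pass the filter, with no group mean above 0.692 CPM. Runs of 50 exon bases that occur elsewhere in the genome made up 0.977% of *EDS1*, 0.947% of *EDS1B*, 0.44% of *ICS1* and 0.278% of *PAD4*, and none were found in *PR1*, *PR2*, *PR5*, *PRB1*, *BG1*, *BG3* or *TLP3*. Other genes overlapped 18.4% of the exon bases of *SARD1*, 9.64% of those of *NPR1*, 9.42% of those of *EDS5* and 19.5% of those of *EDS1B*. The strand setting of the counts is not given in the sources used here, so reads from such overlaps cannot be assigned.

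The levels of several cell type markers also differed between the groups, and whether the makeup of the tissue changed was not tested. The summed level of the 3 leaf mesophyll markers (*RBCS1A*, *CA1* and *LHCB1.1*) was 5359 to 6553 CPM in WT-M, 2102 to 3148 in WT-W, 569 to 801 in WT-A and 396 to 516 in WT-WA. In *clf swn* it was 3461 to 4282 CPM in *cs*-M, 2780 to 4270 in *cs*-A and 2296 to 3176 in *cs*-WA. Most of that sum was *RBCS1A*, and *CA1* alone of the 3 was called lower in the mutant, from 108 ± 29.1 CPM in *cs*-M to 29.7 ± 13.9 in *cs*-A (-1.88 ± 0.52, adjusted p = 0.0086) and 13.2 ± 6.14 in *cs*-WA (-3.11 ± 0.55, adjusted p = 7.1e-05). The 2 phloem markers (*SUC2* and *AHA3*) summed to 57.9 to 82.8 CPM in WT-M, 195 to 242 in WT-A and 140 to 154 in WT-WA, and to 80.8 to 86.8 CPM in *cs*-M, 69.6 to 83.2 in *cs*-A and 58.9 to 68.3 in *cs*-WA. *SUC2* was called lower in *cs*-WA (45.1 ± 1.16 to 17.4 ± 2.76 CPM, -1.46 ± 0.24, adjusted p = 2.9e-05) and *AHA3* was not called (0.23 ± 0.18, adjusted p = 0.36). The 4 root markers summed to 49.95 to 63.3 CPM in WT-M, 52.6 to 61.7 in WT-A and 75.2 to 101 in WT-WA. In the mutant the sum was 60.4 to 62.7 CPM in *cs*-M and 75.5 to 86.2 in *cs*-WA. These markers did not move together. In WT-WA *WOX5* (2.68 to 57.5 CPM) and *COBL9* (0 to 0.722 CPM) were called higher. *SCR* (53.0 to 31.3 CPM) and *CASP1* (0.431 to 0 CPM) were called lower there. Of the markers of senescing leaves, *SAG13* rose from 3.80 ± 2.25 CPM in WT-M to 28.9 ± 6.95 in WT-WA, while *SAG12* was at 0.944 ± 0.822 and 0.0412 ± 0.0714 CPM. The meristem markers *STM* and *KNAT1* remained present, with means of 127 and 151 CPM in *cs*-M and of 75.8 and 64.4 CPM in WT-M. *KNAT1* was called higher in WT-A (0.71 ± 0.15, adjusted p = 0.00016, edgeR) and *STM* was not. *CLV3* had 0 counts in WT-A and WT-WA. *WUS* was called lower in WT-A (0.629 ± 0.193 to 0.0466 ± 0.0404 CPM) and had 0 counts in WT-WA, and it was at 1.21 ± 0.141 CPM in *cs*-M, 2.38 ± 0.733 in *cs*-A and 1.75 ± 0.251 in *cs*-WA. The part of these shifts in the results above was not tested.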

How the data were processed

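RNA was extracted from 35 samples of 10 groups and sequenced as TruSeq libraries. The authors trimmed the reads with Trimmomatic 0.32, aligned them to TAIR10 with TopHat2 2.0.10, kept unique alignments and deposited raw counts per gene made with HTSeq. Tools and versions come from the study's methods and the submitters' processing notes. Each column was matched to a sample by its name, and 0 columns were left unused. The column code C2 was read as mock because its library totals equal those the study gives for DMSO. The totals of the second wounded library are swapped between the genotypes in the study's read statistics, and the column names, which the *CLF* counts matched, were used.

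CPM are counts per 1000000 counted reads. One edgeR 4.0.16 model (R 4.3.3, limma 3.58.1, TMM factors, filterByExpr) with 10 groups was fitted to all libraries and tested by quasi-likelihood, with Benjamini-Hochberg adjustment over 21115 genes. A call means an adjusted p under 0.05 with a log2 change of 0.6 or more in size, and interactions use the adjusted p alone. The study's methods say that replicates were made at different times and that the libraries of a replicate shared a lane, so the numbers pair the samples. Deviations from group means had a median correlation of 0.079 between libraries of the same number (182 pairs) and -0.041 between other numbers (364 pairs). No libraries were duplicates, judged within each group by the chi-square of the counts per degree of freedom. It was 3.00 to 5.00 between the C1 libraries of *cs*-ctrl and at least 8.79 for every other pair. Those C1 libraries were thus the most alike. Alternatives were DESeq2 1.42.0, RLE scaling, other filters and call rules, the replicate block, only the groups compared, set C0 alone, untreated libraries of a number summed, and leaving out each replicate.

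On simulated data with 200 genes changed 4-fold between WT-A and WT-M, among 19657 genes, the test recovered 200 and called 9 others. The changed genes were drawn from well expressed ones, and every gene was given the same small spread between libraries. The simulation therefore does not measure recovery for genes as variable or as low as *PR1*, *PR2* or *SARD1*. The 10 genes and the lists were chosen with earlier results of these data known. Named genes are the 10, the 2 genes of each role with the largest absolute log2 fold change of WT-WA over WT-M, *EDS1B* and the PR relatives, and the 5 genes closest in pattern. The counts carry no coordinates. Gene models and windows were matched by locus identifier to RefSeq's TAIR10.1, and the upstream window of 1 of the 10 genes is not reported here. Intervals cover counting error only.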

Additional observations from a re-analysis of the deposited data

Results flagged for a closer look

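In the untreated groups, of 20 sets of values tested (10 genes in 2 genotypes), 5 held a library far from the others. The rule flags about 1 in 20 by chance for independent and normally distributed values. The 10 genes share their libraries, so the number flagged cannot be read against that rate. *ICS1* was at 10.25 CPM in C0 replicate 2 of *cs*-ctrl, with the nearest library at 13.59 CPM. *CBP60g* was at 5.7 CPM in C0 replicate 3 of *cs*-ctrl (nearest 2.721), and *PR5* at 0.5302 CPM in the same library (nearest 0.2485). *PAD4* was at 3.707 CPM in C1 replicate 3 of *cs*-ctrl (nearest 2.452), and *EDS1* at 43.5 CPM in C1 replicate 2 of WT-ctrl (nearest 31.11).

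The responses of the genotypes differed by an interaction term in edgeR in 19 cases. For 2,4-D the interaction on the log2 scale was -3.86 for *ICS1*, -5.49 for *EDS5*, -4.71 for *SARD1*, -2.17 for *CBP60g*, -2.54 for *EDS1*, -4.70 for *PAD4*, -5.08 for *PR1*, -8.80 for *PR2* and -3.67 for *PR5*. For wounding it was -4.58 for *PR2*. For both treatments it was -4.23 for *ICS1*, -3.71 for *EDS5*, -4.69 for *SARD1*, -2.15 for *CBP60g*, -1.87 for *EDS1*, -4.42 for *PAD4*, -8.11 for *PR1*, -9.82 for *PR2* and -5.38 for *PR5*. Without replicate 2 of *cs*-M these calls were lost: for 2,4-D, *PR2* at -5.38, *PR5* at -1.97, *CBP60g* at -1.18 and *PR1* at 1.24, for wounding, *PR2* at -1.15, and for both, *PR2* at -6.39, *PR1* at -1.79 and *CBP60g* at -1.16.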

How the results depend on the processing

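Of 2809 recomputed fold changes of the 10 genes, 2710 kept their direction and their side of the threshold. Without replicate 2 of *cs*-M, *PR1* reversed in the genotype by 2,4-D interaction (1.24, adjusted p = 0.85), and leaving out single replicates moved that value from -6.92 to 1.24. The number of the 10 genes called changed as follows, and the cause was not tested. With DESeq2 it was 3 in WT-W (4 in edgeR), 2 in *cs*-WA against mock (1 in edgeR), 2 in WT-M and 5 in *cs*-M against untreated (1 each), and 2 for genotype by wounding (1). With the replicate block it was 2 in WT-M against untreated and 1 for wounding by 2,4-D in wild type (0 without it), and the block changed no other call of the 10 genes. With only the groups compared it was 2 in WT-W, 0 in WT-M and 3 in *cs*-M against untreated, 0 for genotype by wounding, 8 for genotype by 2,4-D (9, *PR1* at -5.09, adjusted p = 0.07), 3 in *cs*-M against WT-M (4), 6 in *cs*-W against WT-W (7) and 1 for wounding by 2,4-D in wild type. Requiring the log2 gap of 0.6 between the lowest and highest replicates gave 1 in WT-W, 1 in *cs*-A (2), 0 in *cs*-WA, 0 in WT-M and 0 in *cs*-M against untreated, 5 in *cs*-ctrl against WT-ctrl (8), 3 in *cs*-M against WT-M, 9 in *cs*-A against WT-A (10) and 5 in *cs*-W against WT-W. Adjusted p alone gave 5 in WT-W, 3 in *cs*-A and 5 in *cs*-M against WT-M, each by adding *ICS1*. Set C0 alone gave 6 in *cs*-ctrl against WT-ctrl, 3 in WT-M and 0 in *cs*-M against untreated, and 1 for wounding by 2,4-D in wild type. Summing untreated libraries gave 3 in WT-W, 1 in *cs*-A, 2 in WT-M and 0 in *cs*-M against untreated, and 1 for wounding by 2,4-D in wild type.

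Leaving out single replicates gave 9 to 9 in WT-A and in WT-WA, 2 to 5 in WT-W, 1 to 3 in *cs*-A, 0 to 0 in *cs*-W, 0 to 2 in *cs*-WA, and 1 to 2 in WT-M and 0 to 3 in *cs*-M against untreated. Between genotypes it gave 7 to 9 in untreated tissue, 3 to 6 after mock, 6 to 8 after wounding, and 10 to 10 in both 2,4-D conditions. The interactions with genotype gave 5 to 10 for 2,4-D, 0 to 3 for wounding and 6 to 10 for both, and wounding by 2,4-D gave 0 to 2 in wild type and 0 to 0 in *clf swn*.

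Over all genes, adjusted p alone and the replicate-gap rule gave 7975 and 1602 calls in WT-W (4030), 4931 and 1340 in *cs*-A (2569), 6522 and 2252 in *cs*-WA (3863), 12770 and 3550 in *cs*-ctrl against WT-ctrl (7169) and 10442 and 3770 in *cs*-W against WT-W (6596). Adjusted p alone gave 10067 in *cs*-M against WT-M (6649). WT-M against untreated (414) had 72 with only the groups compared, 90 by the gap rule and 1218 with set C0. *cs*-M against untreated (210) had 388 with DESeq2, 379 with only the groups compared, 322 by adjusted p alone, 28 by the gap rule and 68 with summed libraries. Only the groups compared gave 18 in *cs*-W (225) and 1828 for genotype by wounding (3180), and DESeq2 gave 422 for wounding by 2,4-D in *clf swn* (224). In *clf swn*, the median count over 18 libraries was 4 for *PR1*, 11 for *PR2* and 3.5 for *PR5*, so fold changes within the mutant rest on few counts.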
